A study of Mus musculus with 49 samples.

Results

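The nuclear pore complex and the soluble factors that carry cargo through it were followed in single late 2-cell mouse embryos after depletion of TBP or FOXJ3. The set held 50 of the 21921 protein-coding genes in the count tables, chosen by symbol alone: every Nup, Kpna, Ipo, Tnpo and Xpo gene, Kpnb1, and Tpr, Ndc1, Pom121, Rae1, Ran and Rcc1. The rule reads names and no measured values, and it was written with earlier results of these data known. All 50 had enough reads to be tested in both experiments, and by role they comprised 25 pore genes, 17 importin genes, 6 exportins and 2 genes of the Ran cycle. Zygotes from an F1 (C57BL/6JxCBA/H) background received an antibody against TBP (TBP LOF, 9 embryos) or mouse IgG (its CONTROL, 10 embryos), or an antibody against FOXJ3 (FOXJ3 LOF, 17 embryos) or rabbit IgG (its CONTROL, 13 embryos). All 4 groups were then given Trim21 mRNA 4 h later and were lysed at 48 h post-hCG, each embryo as a separate library. In this method, Trim-Away, Trim21 sends the protein bound by the antibody for degradation, so every CONTROL embryo also carried IgG and the ligase. TBP embryos were collected in 3 biological replicates, but the sources used here do not say which embryo belonged to which, and the embryos of a group may therefore share a collection.

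TBP is the general transcription factor that binds the TATA box and takes part in transcription by all nuclear RNA polymerases. FOXJ3 is a forkhead transcription factor. The nuclear pore is a ring of nucleoporins set in the nuclear envelope: the Y complex and the inner ring form its scaffold, membrane nucleoporins anchor it, nucleoporins with phenylalanine-glycine repeats fill the channel, and filaments and a basket extend to the cytoplasm and the nucleoplasm. Importins bind cargo in the cytoplasm and exportins bind cargo in the nucleus, and the direction of transport is set by Ran, which is loaded with GTP on chromatin by Rcc1. In the mouse, the embryonic genome is activated chiefly at the 2-cell stage, when many maternal transcripts are being cleared.

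Quality limits kept 47 of 49 embryos, leaving 9 TBP LOF and 9 CONTROL embryos, and 16 FOXJ3 LOF and 13 CONTROL embryos in 2 library batches. Counted reads of 5' transcript ends lay between 1103569 and 5434808 per embryo. The Tbp transcript itself had a median normalised count of 83.3 in TBP LOF and 280 in CONTROL embryos, and the highest LOF embryo (151) lay under the lowest CONTROL embryo (195). The Foxj3 transcript was not lower after FOXJ3 LOF (median normalised count 290 against 245, adjusted p = 0.861). The method acts on protein, which was not measured in these files. Of the markers of late 2-cell embryos, all 9 found in the tables had reads in every group. Of 12 cumulus cell markers, at most 3 had a median above 0 in any group, with Has2, Ptx3 and Fshr at a median of 0 in every group, and the summed level of the list ranged from 12.2 to 37.5 rpm (reads scaled to the total of each library) in TBP LOF and from 17.0 to 70.7 in its CONTROL embryos. Most of this sum was Amhr2, with reads in all 47 embryos and medians of 14.2 rpm in TBP LOF and 18.9 in its CONTROL embryos. Of the 5 cumulus markers that could be tested, Amhr2 (log2 -1.18, adjusted p = 0.00624) and Tnfaip6 (-2.46, adjusted p = 0.00865) were lower after TBP LOF with the ERCC scaling described below and neither was with TMM scaling, where Foxl2 was higher (2.77, adjusted p = 0.0409). Their part in the results was not tested. Sperm markers summed to at most 7.83 rpm in any embryo.

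Transcripts of many genes of the transport machinery were lower in TBP LOF embryos. Of the 50 genes, 31 fell, 0 rose and 19 did not pass the test (edgeR quasi-likelihood test, Benjamini-Hochberg adjusted p under 0.05, scaling by ERCC spike-in RNA added to the lysis buffer). Among all 19356 genes and transposable element families tested, 29.7% were lower and 1.34% higher, and among protein-coding genes alone 33.2% were lower. The log2 fold change had a median of -1.24 over the 50 genes and -0.72 over all features, and 34 of the 50 genes lay below the latter value. Because well-counted genes are called more easily, the same count was made among the 8124 features that pass a stricter filter: 52.5% of these were lower, and 31 of the 46 transport genes among them. Under that filter the median log2 fold change was -1.15 for the 46 transport genes and -0.90 for all features, a smaller gap. Each library is a whole embryo, and both groups were collected at the same stage, which sets the number of cells alike in both. The ERCC scale therefore compares RNA per embryo. Cell numbers are not listed for the single libraries, and RNA per cell was not tested. The paper places the transcriptomes of TBP LOF embryos nearer to earlier stages and reports a developmental delay, whose part here was not tested. ERCC reads made up a median of 4.38% of reads in TBP LOF and 2.82% in CONTROL embryos. Summed over the 50 genes, normalised counts ranged from 1452 to 5524 in TBP LOF and from 5774 to 11571 in CONTROL embryos, and the groups did not overlap.

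With TMM scaling, which assumes that most features do not change, the median of all features moved by 0.82 to 0.11. On that scale 19 of the 50 genes were lower and 6 were higher, against 12.7% and 12.8% of all features, and the median of the 50 genes was -0.32. All 19 were among the 31 genes that fell with ERCC scaling, and the other 12 of the 31 were not called (Ipo9, Ipo13, Kpna7, Kpnb1, Nup98, Nup153, Nup160, Nup210l, Rae1, Rcc1, Tnpo2 and Xpo6). The 6 genes higher only relative to the rest of the RNA were Ipo8, Kpna3, Nup62, Nup88, Nup62cl and Tnpo1, none of which was called with ERCC scaling. DESeq2 size factors, which rest on the same assumption, gave 20 lower and the same 6 higher genes. Reads from the 50 genes made up a median of 0.235% of reads in TBP LOF and 0.320% in CONTROL embryos, with ranges of 0.128% to 0.292% and 0.259% to 0.439%. Unless TMM is named, the log2 fold changes and adjusted p of TBP LOF that follow are on the ERCC scale. So are those of the difference of effects. Those of FOXJ3 LOF are on the TMM scale unless ERCC is named.

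**Figure D1:**
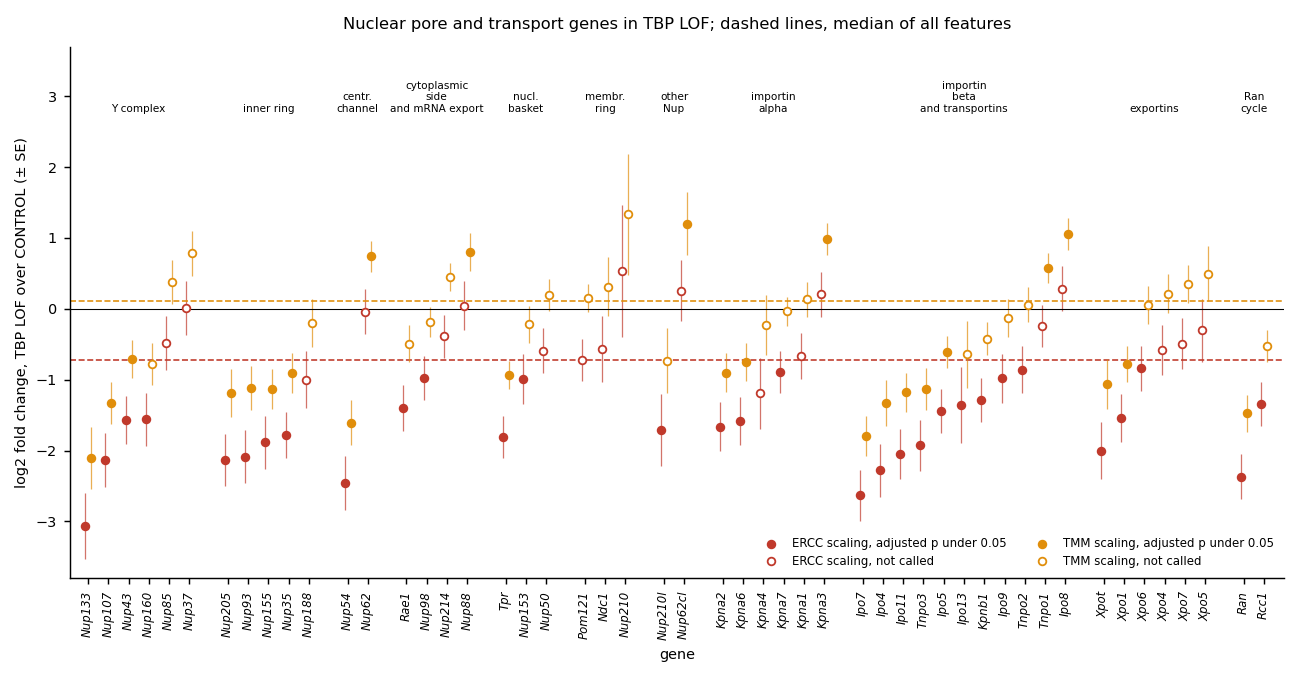
Log2 fold change (TBP LOF over CONTROL, vertical axis, bars ± SE) of each of the 50 genes, grouped by role along the horizontal axis, with ERCC scaling (red) and TMM scaling (orange); filled points had an adjusted p under 0.05. Dashed lines mark the medians of all features, -0.72 and 0.11; 31 genes were lower with ERCC scaling, while with TMM 19 were lower and Ipo8, Kpna3, Nup62, Nup88, Nup62cl and Tnpo1 were higher.

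Both genes of the Ran cycle fell, where 29.7% of all features and 52.5% of those passing the stricter filter were lower. With TMM 1 of the 2 was lower. Ran, the GTPase that releases import cargo and binds export cargo in the nucleus, had normalised counts of 50.5, 116 and 293 in TBP LOF embryos (lowest, median and highest) and of 441, 588 and 1155 in CONTROL embryos. Every TBP LOF embryo lay below every CONTROL embryo. The difference was 5.16-fold (log2 -2.37 ± 0.32 SE, adjusted p = 6.96e-08), the smallest p of the 50 genes, and was called with TMM as well (-1.47, adjusted p = 0.000117). A near-identical gene, Gm13461, matches Ran over 662 bases at 97.3% identity, but took 48 reads against 31854 of Ran over all embryos. Rcc1, the exchange factor that loads Ran with GTP, had 29.9, 61.0 and 124 in TBP LOF and 137, 172 and 269 in CONTROL embryos, again without overlap (-1.35 ± 0.31, adjusted p = 0.000515). Its change was not called with TMM (-0.52, adjusted p = 0.0865), and its exons overlap those of Snhg3, a small nucleolar RNA host gene.

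Among importins of the beta family and the transportins, 9 of 11 fell, with a median of -1.36, against 29.7% lower and a median of -0.72 over all features. Of the features passing the stricter filter, 52.5% were lower. Ipo7, an importin of ribosomal proteins and histones, had normalised counts of 1.93, 28.2 and 47.1 in TBP LOF embryos and 85.3, 180 and 243 in CONTROL embryos. The groups were separate, and the difference was 6.19-fold (-2.63 ± 0.36, adjusted p = 8.77e-08). Ipo11 had 5.13, 14.8 and 35.0 in TBP LOF and 49.9, 64.2 and 103 in CONTROL embryos, again separate. Ipo4 (-2.28), Ipo11 (-2.04) and Tnpo3, the importin of serine-arginine-rich splicing factors (-1.93), also fell and were called with TMM, as was Ipo5 (-1.44). Exons of Ipo11, Tnpo3 and Kpnb1 overlap those of Gm28989, Irf5 and Gm11583 on the other strand, and those of Ipo4 overlap Gm49378 on the same strand. Kpnb1, importin beta itself and partner of the importin alphas, had 18.8, 44.5 and 73.8 in TBP LOF and 71.2, 99.8 and 170 in CONTROL embryos. A single TBP LOF embryo reached into the CONTROL range, and the fall (-1.29 ± 0.31, adjusted p = 0.000837) was not called with TMM. The falls of Ipo13 (-1.36, adjusted p = 0.0462), Tnpo2 (-0.86, adjusted p = 0.0446) and Ipo9 (-0.98, adjusted p = 0.0228) were not called with TMM either, and the sign of Tnpo2 turned (0.057 with TMM and 0.084 with DESeq2 size factors). Their adjusted p reached 0.0924, 0.0928 and 0.0774 when single embryos were left out, the last without CONTROL embryo 1. Of the alternative settings of scaling, test, filter, embryos and covariates, Tnpo2 passed in 2 of 8, Ipo13 in 3 of 7 and Ipo9 in 5 of 8.

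Ipo8, the closest relative of Ipo7, did not pass the test. It had 64.9, 194 and 419 in TBP LOF and 97.0, 175 and 328 in CONTROL embryos, with 3 LOF embryos above and 1 below the CONTROL range (0.28 ± 0.32, adjusted p = 0.556). With TMM it was higher (1.05, adjusted p = 0.00087). Its exons overlap those of 2610017A05Rik on the other strand, and the sources used here do not say whether the counting used strand. For Tnpo1, the transportin of many RNA-binding proteins, the log2 fold change was -0.25 with ERCC and 0.58 with TMM scaling, with an adjusted p of 0.585 and 0.0363.

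Promoter windows of RefSeq (GRCm38.p6, 250 bases before to 50 bases after an annotated start) were found for 41 of the 50 genes, in 48 windows. They are shown for genes at either end of the response because TBP binds TATA boxes. The sequences below give the 250 bases before the start, 5' to 3' on the strand of the gene, with the letters TATAAA, searched on both strands, in capitals. Those of Ran (chr5:129019906-129020155, plus strand) and Ipo7 (chr7:110018065-110018314, plus strand) belong to the pair of genes with the smallest p, that of Ipo8 (chr6:148831468-148831717, minus strand) to the gene with the smallest p among those with a positive log2 fold change, and that of Nup93 (chr8:94266597-94266846, plus strand), a start inside the gene, was chosen after the search because it holds the letters closest to the usual place of a TATA box. Kpna3 has no entry in the table.
Ran: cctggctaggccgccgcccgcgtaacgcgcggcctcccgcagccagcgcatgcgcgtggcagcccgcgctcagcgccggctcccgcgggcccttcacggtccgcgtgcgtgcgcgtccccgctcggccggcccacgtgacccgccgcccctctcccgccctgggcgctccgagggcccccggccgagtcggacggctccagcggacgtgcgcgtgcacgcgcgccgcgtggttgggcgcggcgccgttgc
Ipo7: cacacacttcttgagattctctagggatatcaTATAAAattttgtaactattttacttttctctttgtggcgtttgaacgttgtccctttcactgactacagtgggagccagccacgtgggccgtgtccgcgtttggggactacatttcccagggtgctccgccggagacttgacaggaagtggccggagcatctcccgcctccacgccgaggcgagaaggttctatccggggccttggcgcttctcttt
Ipo8: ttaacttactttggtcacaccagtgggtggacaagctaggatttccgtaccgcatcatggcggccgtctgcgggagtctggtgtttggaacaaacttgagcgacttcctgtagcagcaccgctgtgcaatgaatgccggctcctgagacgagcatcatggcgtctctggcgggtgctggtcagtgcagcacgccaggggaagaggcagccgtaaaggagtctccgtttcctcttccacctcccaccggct
Nup93: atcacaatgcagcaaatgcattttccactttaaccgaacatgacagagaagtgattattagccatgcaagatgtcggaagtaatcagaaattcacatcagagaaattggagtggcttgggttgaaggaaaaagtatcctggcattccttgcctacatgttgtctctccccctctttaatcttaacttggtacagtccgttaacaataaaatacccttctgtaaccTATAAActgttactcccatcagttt
The window of Ran held no TATAAA, and 82% of its bases were G or C. That of Ipo7 held it 218 bases before the start, and that of Ipo8 held none. Nup93 held it 25 bases before the start.

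TATAAA was present in 4 of the 48 windows (8.33%), those of Ipo5, Ipo7, Nup160 and Nup93, against 13.6% of all 32851 windows in the table. All 4 genes fell in TBP LOF embryos, where 27 of the 41 genes with a window fell. Of all features 29.7% were lower, and 52.5% of those passing the stricter filter. For Ipo5 and Nup93 the match lay 18 and 25 bases before a start inside the gene, and the other window of each held none. For Ipo7 it lay 218 bases before the start, and for Nup160 167 bases before, on the reverse strand. Between 20 and 40 bases before the start it was present in 1 of the 48 windows (2.08%) and in 1.99% of all windows. Among the 27 genes with a window that fell, 4 of 32 windows held it, and among the 14 that did not, 0 of 16 windows. This difference was not tested, and the windows of other genes were not split in this way. The median share of G and C was 64.2% in the 48 windows and 52.7% in all windows. A match describes letters only and says nothing of occupancy by TBP.

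Importin alphas recognise the classical nuclear localisation signal and bridge it to Kpnb1. Of 6 genes, Kpna2, Kpna6 and Kpna7 fell and Kpna1, Kpna3 and Kpna4 did not pass the test with edgeR, against 29.7% lower among all features and 52.5% among those passing the stricter filter. Kpna4 is not among the features that pass the stricter filter, and was lower with DESeq2 (adjusted p = 0.0248). Kpna2 had the highest median level of the 50 genes in both CONTROL groups, with 547 rpm in mouse IgG and 926 in rabbit IgG embryos. Its normalised counts were 76.2, 370 and 911 in TBP LOF and 982, 1150 and 2059 in CONTROL embryos, without overlap (-1.66 ± 0.34, adjusted p = 9.24e-05; with TMM -0.90, adjusted p = 0.0137). Gm10184 is 99.9% identical to Kpna2 over 1968 bases and took 3400 reads against 72412 of Kpna2, so that reads may be divided between them. Kpna7, an importin alpha of oocytes and early embryos, had 25.2, 59.8 and 93.7 in TBP LOF and 90.3, 98.1 and 183 in CONTROL embryos (-0.89 ± 0.30, adjusted p = 0.0178). Of the 9 TBP LOF embryos, 7 lay below the CONTROL range, and with TMM the log2 fold change was -0.04 (adjusted p = 0.921). Kpna7 exons overlap those of Arpc1a on the other strand. Kpna3 had 28.2, 119 and 246 in TBP LOF and 70.4, 97.0 and 174 in CONTROL embryos (0.21 ± 0.32, adjusted p = 0.684), and was higher with TMM (0.99, adjusted p = 0.0019).

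Of the exportins, Xpo1, Xpot and Xpo6 fell and Xpo4, Xpo5 and Xpo7 did not pass the test, so that 3 of 6 were lower where 29.7% of all features and 52.5% of those passing the stricter filter were. Xpo1, the receptor of leucine-rich export signals, had 11.7, 50.5 and 118 in TBP LOF and 116, 160 and 240 in CONTROL embryos. The highest LOF embryo just passed the lowest CONTROL embryo (-1.54 ± 0.34, adjusted p = 0.000239; with TMM -0.78, adjusted p = 0.0205). Xpot, the exporter of tRNA, fell by 2.00 on the log2 scale without overlap of the groups and was called with TMM. A near-identical copy, Gm7389, took 17 reads against 1724 of Xpot. Xpo6, the exporter of actin, had 18.1, 76.8 and 132 in TBP LOF and 62.3, 118 and 220 in CONTROL embryos (-0.84 ± 0.32, adjusted p = 0.0362), and its sign turned with TMM (0.05, adjusted p = 0.909). Its adjusted p lay between 0.0136 and 0.0951 when single embryos were left out. For Xpo5, the exporter of microRNA precursors, it was -0.30 (adjusted p = 0.672).

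In the scaffold of the pore, 8 of 11 genes fell, where 29.7% of all features and 52.5% of those passing the stricter filter were lower. In the inner ring, Nup205 (-2.14), Nup93 (-2.08), Nup155 (-1.88) and Nup35 (-1.78) all fell and were called with TMM, while Nup188 did not pass the test with edgeR (adjusted p = 0.0512). It was lower with DESeq2 and with the stricter filter, at a lowest adjusted p of 0.0294. Exons of Nup188 overlap those of Gm28038, and a copy of Nup35, Gm4353, took 397 reads against 13951. In the Y complex, which forms the outer rings, Nup133, Nup107, Nup43 and Nup160 fell and Nup37 and Nup85 did not pass the test. Nup160 was not called with TMM (-0.78, adjusted p = 0.0514). Nup133 showed the lowest log2 fold change of the 50 genes (-3.06 ± 0.47, adjusted p = 6.48e-07; with TMM -2.11, adjusted p = 0.000568). Its normalised counts were 0, 5.81 and 9.52 in TBP LOF and 25.7, 36.1 and 81.9 in CONTROL embryos, so that the groups were separate at a low level. Exons of Nup133 overlap those of Gm29773 and Gm45890 on the other strand. The log2 fold change was 0.01 for Nup37, of the same complex, and -0.48 for Nup85 (adjusted p = 0.986 and 0.372).

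The 2 genes of the central channel in the set divided. Nup54 had 2.17, 18.3 and 27.8 in TBP LOF and 24.9, 81.1 and 188 in CONTROL embryos (-2.45 ± 0.38, adjusted p = 8.59e-07), with a single CONTROL embryo within the LOF range, and was called with TMM (-1.61, adjusted p = 0.000343). Nup62, its partner in the channel, had 60.8, 153 and 327 in TBP LOF and 70.8, 140 and 246 in CONTROL embryos. The ranges overlapped (-0.04 ± 0.31, adjusted p = 0.947), and with TMM it was higher (0.74, adjusted p = 0.0109). Exons of Nup62 overlap those of Il4i1 and Atf5, and reads of these genes may have been counted with it. Nup54 has a near-identical copy, Gm15790, which took 0 reads against 3749 of Nup54.

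In the nuclear basket, Tpr and Nup153 fell and Nup50 did not pass the test. Of all features 29.7% were lower, and 52.5% of those passing the stricter filter. Tpr, the basket filament, had 83.3, 165 and 273 in TBP LOF and 397, 544 and 850 in CONTROL embryos, without overlap (-1.81 ± 0.29, adjusted p = 1.86e-06; with TMM -0.93, adjusted p = 0.00059). Exons of Tpr overlap those of Odr4 and Prg4 on the other strand. Nup153, which anchors the basket, had 6.52, 23.2 and 58.8 in TBP LOF and 30.9, 45.1 and 92.0 in CONTROL embryos (-0.99 ± 0.35, adjusted p = 0.0246). It was not called with TMM, nor without CONTROL embryo 8 (adjusted p = 0.0698). The group of the cytoplasmic side and mRNA export includes Nup98, a mobile nucleoporin with a role in mRNA export. Nup98 had 25.1, 60.9 and 150 in TBP LOF and 102, 149 and 227 in CONTROL embryos (-0.98 ± 0.31, adjusted p = 0.0111). Its partner Rae1 had 13.2, 38.6 and 78.7 against 66.8, 97.2 and 238 (-1.40 ± 0.33, adjusted p = 0.000588). Neither was called with TMM. Nup214 and Nup88, which form the cytoplasmic filaments, had log2 fold changes of -0.39 and 0.04 and did not pass the test, and Nup88 was higher with TMM (0.80, adjusted p = 0.0268).

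None of the 3 membrane nucleoporins passed the test with edgeR, where 29.7% of all features and 52.5% of those passing the stricter filter were lower. The log2 fold change was -0.72 for Pom121 (adjusted p = 0.0527), which was lower with DESeq2 and with the stricter filter (lowest adjusted p = 0.025), and -0.56 for Ndc1 (adjusted p = 0.403). Nup210 was barely detected, with 0, 1.46 and 7.26 normalised counts in TBP LOF and 0, 1.43 and 3.47 in CONTROL embryos (0.54 ± 0.93, adjusted p = 0.722). Of the remaining Nup symbols, Nup210l fell (-1.71, adjusted p = 0.00691) and Nup62cl did not pass the test. With TMM the value of Nup210l was -0.73 and was not called (adjusted p = 0.257). Nup62cl had 13.5, 32.8 and 79.0 in TBP LOF and 3.61, 16.1 and 95.7 in CONTROL embryos (0.26 ± 0.43, adjusted p = 0.709), and with TMM it was higher (1.203, adjusted p = 0.0447). It was among the most variable of the 50 genes between embryos, with a coefficient of variation of 118% in the CONTROL embryos.

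Complete separation of the groups was seen in 11 of the 50 genes, namely Ran, Rcc1, Ipo7, Ipo11, Tnpo3, Kpna2, Xpot, Nup107, Nup133, Nup93 and Tpr. Among all features, 6.69% had every TBP LOF embryo below every CONTROL embryo. The separation in the opposite direction was seen in 0 of the 50 genes and in 0.0103% of features. Among TBP LOF embryos, embryo 11 held the lowest value for 23 of the 50 genes and embryo 9 for 14, whereas the highest values lay mostly in embryos 8 (16 genes) and 10 (14 genes). Among CONTROL embryos, embryo 8 held the highest value for 25 of the 50 genes and embryo 10 for 13. The lowest values lay mostly in CONTROL embryos 2 (15 genes) and 3 (11 genes). ERCC reads made up 6.03% and 4.62% of reads in LOF embryos 11 and 9, and 2.67% and 3.51% in 8 and 10. LOF embryo 7, with 6.12%, held the lowest value for 2 genes. In CONTROL embryos 8 and 10 the share was 2.36% and 2.22%, and in 2 and 3 it was 2.82% and 3.03%. CONTROL embryo 5, with 3.25%, held the lowest value for 4 genes. The same count over all features was not made. Without LOF embryo 11 or 9, 28 genes were lower, and likewise 28 without CONTROL embryo 4, 8 or 10.

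**Figure D2:**
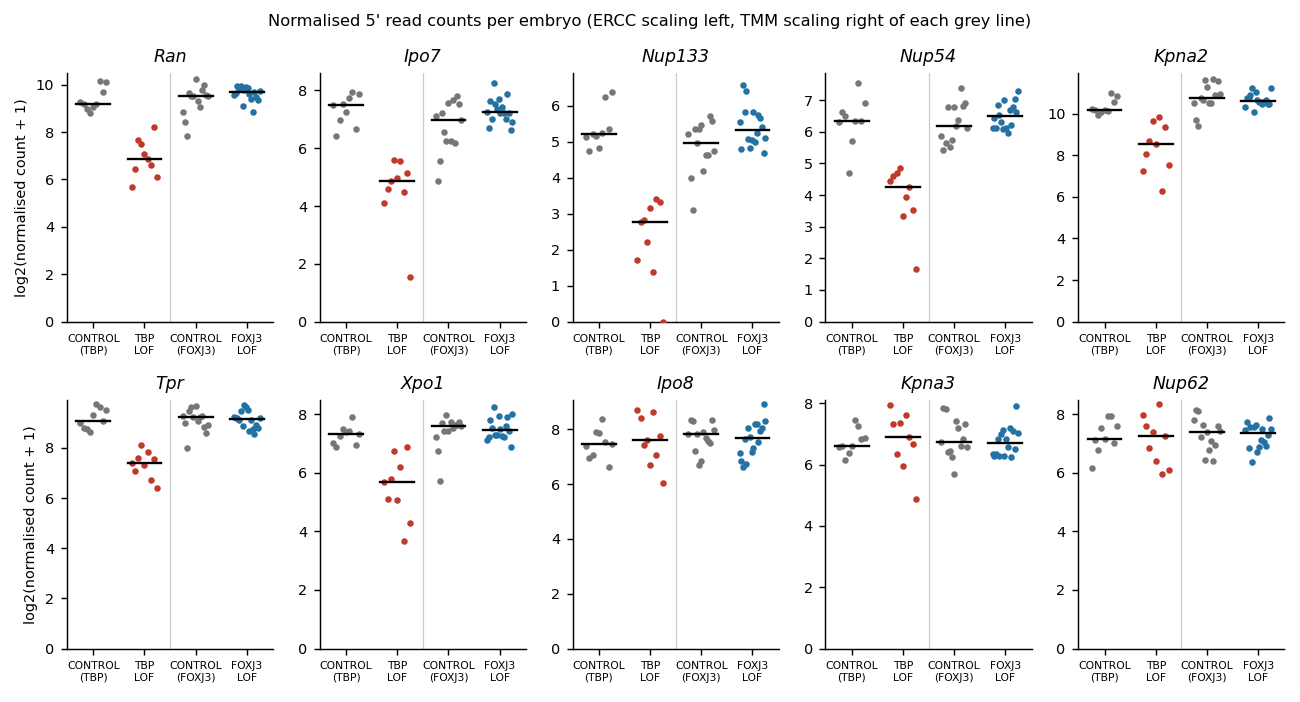
Log2(normalised count + 1) of 10 genes in every embryo (points), with the group median as a bar; TBP LOF and its CONTROL left of each grey line on the ERCC scale, FOXJ3 LOF and its CONTROL right of it on the TMM scale. TBP LOF embryos lie below all CONTROL embryos for Ran, Ipo7, Nup133, Kpna2 and Tpr, while the groups overlap for Ipo8, Kpna3 and Nup62, which were higher in TBP LOF embryos with TMM scaling or DESeq2 size factors and not with ERCC scaling.

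Ratios of related transport genes within an embryo do not depend on any scaling. The pairs were picked with the values known, and their ratios are given as a description. The log2 ratio of Ipo7 to Ipo8 reads was between -4.99 and -1.78 in TBP LOF embryos (median -2.63) and between -0.63 and 0.43 in CONTROL embryos (median -0.06). Ipo7 and Ipo8 were within 1 unit of parity in every one of these CONTROL embryos, and Ipo8 exceeded Ipo7 in every TBP LOF embryo. Low ratios were also found in the other experiment, where they lay between -2.29 and 1.51 in FOXJ3 LOF and between -3.50 and 0.75 in CONTROL embryos, with 1 of 16 and 2 of 13 embryos inside the TBP LOF range. These 2 CONTROL embryos, embryos 2 and 3 of batch 1 (-3.50 and -2.77), also held the lowest Ran and Kpna2 values among rabbit IgG embryos. The ratio of Kpna6 to Kpna1 had a median of -1.41 in TBP LOF and -0.71 in CONTROL embryos. That of Kpna4 to Kpna3 had medians of -4.25 and -2.91, and that of Tnpo2 to Tnpo1 medians of -2.46 and -1.72. In these 3 pairs the ranges overlapped. The rabbit IgG CONTROL embryos had medians of -0.59, -3.802 and -2.63 for the same 3 pairs, the last below that of TBP LOF embryos. The ratio of Kpna2 to Kpna7 lay between 0.67 and 3.86 in TBP LOF embryos, between 3.06 and 3.91 in mouse IgG and between 2.14 and 4.71 in rabbit IgG CONTROL embryos. In FOXJ3 LOF and CONTROL embryos the ranges overlapped for all 5 pairs, with medians of -0.43 and -0.79 for Ipo7 to Ipo8.

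**Figure D3:**
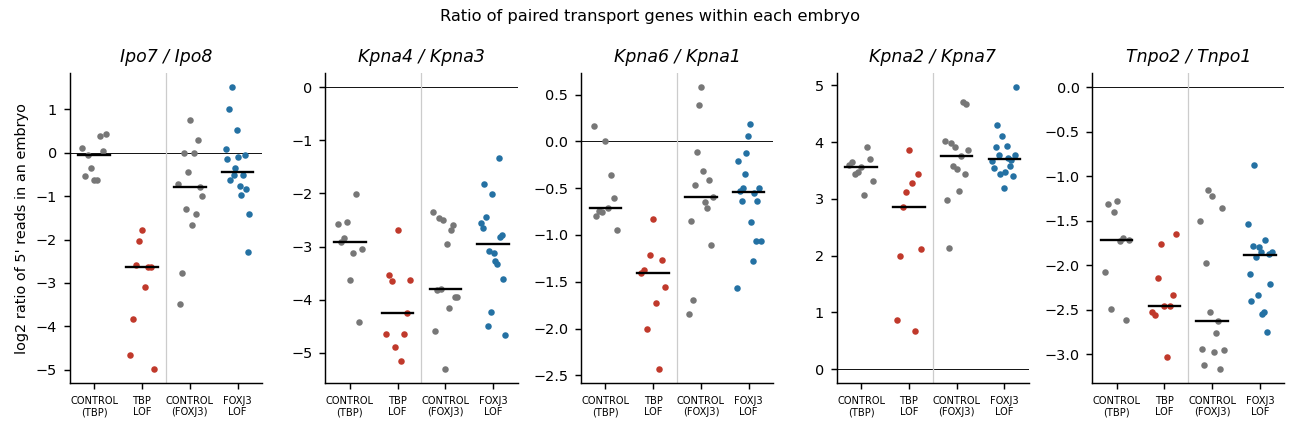
Log2 ratio of 5' read counts (0.5 read added to each) of paired transport genes within each embryo (points; bars, group medians), for the 4 groups. The ratio of Ipo7 to Ipo8 lies between -4.99 and -1.78 in TBP LOF embryos and between -0.63 and 0.43 in its CONTROL embryos, while 1 FOXJ3 LOF embryo and 2 rabbit IgG CONTROL embryos reach into the TBP LOF range; the ranges of the other pairs overlap.

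Genes of nuclear transport with other symbols were examined as a separate list. Of 26 such genes, 17 fell, 0 rose and 9 did not pass the test, with a median of -1.09. Among all features 29.7% were lower and 1.34% higher, and among those passing the stricter filter 52.5% were lower. With TMM 7 of the 26 genes were lower and 2, Nutf2 and Sec13, were higher, against 12.7% and 12.8% of all features. In the Ran cycle, Rangap1, which triggers GTP hydrolysis in the cytoplasm, fell by 1.84 on the log2 scale (adjusted p = 1.59e-06), from a CONTROL median of 183 to 57.7 normalised counts, without overlap of the groups. Ranbp1, its cofactor, fell by 1.88 (adjusted p = 2.21e-05), and Ranbp2, the large nucleoporin of the cytoplasmic filaments, fell by 1.58 (adjusted p = 0.000336). Nutf2, which returns Ran to the nucleus, had 101, 245 and 322 in TBP LOF and 89.9, 177 and 318 in CONTROL embryos (0.12, adjusted p = 0.82). Cse1l, which returns importin alpha to the cytoplasm, had -1.02 (adjusted p = 0.0187) and was not called with TMM (-0.27, adjusted p = 0.483). In mRNA export, Nxf1 (-1.11) and Nxt1 (-1.70), which form the export receptor, fell, as did Alyref (-1.78) and Thoc1 (-1.76) of the complex that couples transcription to export. Of these 4 genes, Nxf1 (-0.27, adjusted p = 0.388) and Alyref (-0.76, adjusted p = 0.0504) were not called with TMM. Nxt2 (-0.22) and the export helicases Ddx19a (-0.10) and Ddx19b (-0.81) did not pass the test on either scale. Seh1l, Ahctf1 and Sec13 also belong to the Y complex. Seh1l (-0.97, adjusted p = 0.006) and Ahctf1 (-1.28, adjusted p = 0.000855) fell but were not called with TMM. Sec13 had -0.27 (adjusted p = 0.57). Nupl1, the gene of the channel nucleoporin Nup58, had -0.10 (adjusted p = 0.885).

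Among markers of oocytes, transcripts made before fertilisation, 1 of 10 was lower (Zp3) and 0 were higher with ERCC scaling, with a median log2 fold change of 0.08, and with TMM 7 were higher. Their summed level ranged from 1894 to 3359 rpm in TBP LOF and from 829 to 2399 in CONTROL embryos. The summed level of the 9 late 2-cell markers likewise ranged from 337 to 697 rpm in TBP LOF and from 180.5 to 531 in CONTROL embryos, and with TMM Zfp352, Eif4e3 and Usp17lc were higher, of which Usp17lc was also higher with ERCC scaling (1.38, adjusted p = 0.00515). The part of either list in the result was not tested.

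FOXJ3 LOF did not move any of these genes past the threshold. Normalised counts and log2 fold changes of this experiment are on the TMM scale, unlike those of TBP LOF. Of the 50 genes, 0 passed at an adjusted p under 0.05 with edgeR or with DESeq2, and 0.0102% of the 19517 features did with edgeR. At an unadjusted p under 0.05 there were 5 genes against 5.71% of all features. The median log2 fold change was 0.13 over the 50 genes and -0.03 over all features. With ERCC scaling these medians were 0.31 and 0.14. The smallest p was that of Ipo11, with normalised counts of 46.3, 74.9 and 128 in FOXJ3 LOF and 28.4, 55.9 and 93.9 in CONTROL embryos (0.51 ± 0.20, adjusted p = 0.788). Its log2 fold change was 0.52 in batch 1 and 0.48 in batch 2. Rae1 had 45.1, 103 and 143 against 38.5, 81.1 and 116 (0.41 ± 0.16, adjusted p = 0.798), with 0.43 and 0.37 within the batches. Xpo6 had 38.3, 133 and 270 against 59.9, 96.4 and 161 (0.46 ± 0.20, adjusted p = 0.835), with 0.70 in batch 1 and 0.15 in batch 2. All 3 pairs of ranges overlapped.

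The ranges of FOXJ3 LOF and CONTROL embryos overlapped for all 50 genes, among them those that fell in TBP LOF embryos. Ran had 464, 814 and 995 in FOXJ3 LOF and 226, 738 and 1220 in CONTROL embryos (0.18 ± 0.17, adjusted p = 0.951). Ipo7 had 98.4, 150 and 305 against 27.9, 124 and 222 (0.44 ± 0.23, adjusted p = 0.878), and Nup133 had 24.6, 39.2 and 94.2 against 7.66, 29.9 and 52.0 (0.51 ± 0.24, adjusted p = 0.861). Nup54 had 61.7, 88.9 and 155 against 41.8, 71.3 and 167 (0.21 ± 0.18, adjusted p = 0.944). For Ran the ratio turned sign between the batches, with 0.40 in batch 1 and -0.09 in batch 2. Kpna2 had 1086, 1568 and 2426 against 685, 1726 and 3276 (-0.21 ± 0.18, adjusted p = 0.946) and Tpr had 369, 563 and 846 against 257, 602 and 803 (-0.01 ± 0.14, adjusted p = 0.997). CONTROL embryos 2 and 3 of batch 1 held the lowest CONTROL values of Ran (340 and 226), Kpna2 (819 and 685) and Ipo7 (27.9 and 45.9). They held the highest of Kpna3 (228 and 224) and Nup62 (279.8 and 272). No embryo of the FOXJ3 experiment was left out in turn, so the part of these embryos was not tested.

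The other genes described for TBP LOF had overlapping ranges as well. Among importins, Ipo8 had 97.1, 204 and 484 in FOXJ3 LOF and 102, 225 and 322 in CONTROL embryos, and Kpnb1 had 63.3, 113 and 176 against 31.7, 116 and 227. Kpna3 had 75.2, 103 and 241 against 50.8, 105 and 228, and Kpna7 had 77.3, 119 and 177 against 91.1, 135 and 217. All 4 medians were lower in FOXJ3 LOF embryos, by less than the spread of either group. Xpo1 had 118, 174 and 303 against 51.4, 191 and 249, and Rcc1 had 98.2, 159 and 247 against 68.9, 146 and 211. In the pore, Nup62 had 82.2, 165 and 231 against 83.6, 167 and 279.8, Nup98 had 76.6, 142 and 241 against 76.4, 117 and 185, and Nup153 had 22.1, 58.1 and 96.6 against 33.2, 54.7 and 63.6. The upper end of the FOXJ3 LOF range lay above that of CONTROL embryos for Nup98 and Nup153 and below it for Nup62. Nup210 stayed near 0, with 0, 1.82 and 11.4 against 0, 0.996 and 7.81, and Nup62cl again had a wide range, with 8.84, 41.3 and 402 against 5.07, 54.8 and 210.1. Of the 9 late 2-cell markers, 0 were called after FOXJ3 LOF, but the log2 fold change was below 0 for all 9, with a median of -0.56 and 3 at an unadjusted p under 0.05. Their summed level had a median of 363 rpm in FOXJ3 LOF and 558 in CONTROL embryos, the opposite order to the TBP experiment. Their part in the FOXJ3 results and in the difference of effects was not tested.

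Whether the effects of the depletions differed was tested in all 47 embryos together. The TBP effect was below the FOXJ3 effect for 32 of the 50 genes and above it for 0, against 28% and 0.911% of all 19657 features. The median difference was -1.60 on the log2 scale over the 50 genes and -0.89 over all features. It was -2.75 ± 0.40 for Ran (adjusted p = 3.92e-07), -3.17 ± 0.51 for Ipo7 (adjusted p = 1.71e-06) and -3.81 ± 0.57 for Nup133 (adjusted p = 6.47e-07). The 32 genes were those that fell in TBP LOF embryos without Kpna7 (-0.88, adjusted p = 0.0571) and with Kpna4 (-1.66, adjusted p = 0.0328) and Pom121 (-1.01, adjusted p = 0.0318). With TMM the TBP effect was called below the FOXJ3 effect for 16 genes and above it for 4, Ipo8, Kpna3, Nup62 and Nup88, against 10.9% and 10.7% of all features. The experiments were prepared as separate libraries, so that experiment and preparation cannot be told apart in this difference.

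**Figure D4:**
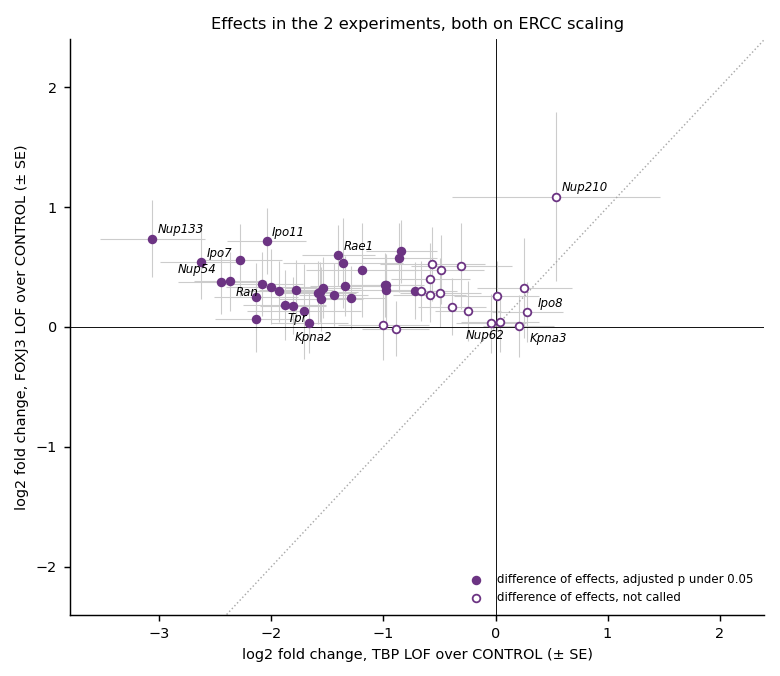
Log2 fold change of each of the 50 genes in TBP LOF (horizontal axis) and FOXJ3 LOF embryos (vertical axis), each over its own CONTROL and on the ERCC scale, with bars ± SE; filled points had an adjusted p under 0.05 for the difference between the effects, and the dotted line marks equal effects. The 32 filled points lie above the dotted line at the left; with TMM scaling 16 genes were called in this direction and Ipo8, Kpna3, Nup62 and Nup88 in the opposite direction.

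The levels of the 50 genes in CONTROL embryos of both experiments spanned a wide range. On the scale of rpm, over the CONTROL embryos of both experiments pooled, Kpna2 (median 717), Ran (329), Tpr (282), Nup35 (145) and Tnpo3 (140) were highest, and Kpna4 (5.55) and Nup210 (0.644) were lowest. Below Kpna2 the order of medians differed between the CONTROL groups: with mouse IgG, Tpr (271) stood above Ran (260), and Nup214 (135) above Tnpo3 (128) and Nup35 (122), whereas with rabbit IgG, Ran (379.5) stood above Tpr (293). Per kilobase of exon, the levels of Kpna2 (250), Ran (124) and Nup35 (43.1) were highest and Nup210 (0.0614) was lowest. As only 5' ends were counted, a longer transcript need not give more reads, and both scales are given. In CONTROL embryos of the TBP experiment, Kpna2 ranged from 418 to 835 rpm and Ran from 186 to 451, so that these neighbours overlapped, as did Ran and Tpr (168 to 316). In TBP LOF embryos Kpna2 ranged from 57.6 to 491, Ran from 32.6 to 184 and Tpr from 71.0 to 166. The coefficient of variation between embryos was 25.6% in CONTROL and 57.1% in TBP LOF embryos for Kpna2, 33.5% and 55.5% for Ran, and 21.4% and 29.7% for Tpr, and these spreads were not tested.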

How the data were processed

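Single late 2-cell embryos were sequenced with Smart-seq+5'. Per the study's Methods, the authors sorted reads of 5' transcript ends, mapped them with STAR (version 2.7.11a in the submitters' processing notes) to GRCm38 and counted them with TEcount per gene (GENCODE), ERCC spike-in and transposable element family. The deposited values are estimated counts (expected counts) with no normalisation; all were whole numbers, so rounding changed nothing. The sources used here do not give strand use or how reads of similar copies were shared, so 18 members with exon overlap and 9 with a near-identical transcript (at least 95% identity over 150 bases) are uncertain.

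Embryos with at least 500000 reads, 1000 genes, at most 10% mitochondrial and 15% ERCC reads were kept. Features with 1 read in 25% of embryos were tested by quasi-likelihood (two-sided) in edgeR 4.0.16 and R 4.3.3, adjusted over all features (Benjamini-Hochberg, threshold 0.05): TBP with size factors from 42 ERCC transcripts, FOXJ3 with TMM and library batch, and the difference of effects with ERCC scaling. The authors used DESeq2, here an alternative (1.42.0). Standard errors came from the F statistic, and p-values measure the spread between embryos. Alternatives were other scalings, filters, covariates, batches, all embryos, replicate numbers as a block, and each TBP embryo left out. Intervals of counting error were not used, since PCR reads without identifiers are not independent molecules. On simulated counts, the test was tried with 200 changed features per comparison. Members, lists, roles and the 26 other transport genes were chosen with earlier results of these data known; values in each group are given for the 4 members with a negative and the 4 with a positive log2 fold change of smallest p after TBP LOF, the 3 smallest after FOXJ3 LOF, and 11 members named by function. Python 3.11.15, numpy 2.4.6, pandas 2.3.3 and matplotlib 3.10.9 were also used.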

Additional observations from a re-analysis of the deposited data

Results flagged for a closer look

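Kpna7 was flagged because 1 CONTROL embryo of the TBP experiment stood apart. Embryo 10 had a normalised count of 183 and the next highest embryo 137, a gap of 0.5 of the whole range of the 9 embryos, which is beyond Dixon's 95% critical value. Chance flags about 1 in 20 groups, and 40 groups of the named genes were examined.

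A further 14 of the 20 named genes were flagged because the TBP effect and the FOXJ3 effect differed by the test of the difference itself (edgeR, log2 scale, ERCC scaling). The difference was -3.81 for Nup133, -3.17 for Ipo7, -2.83 for Nup54, -2.77 for Ipo11 and -2.75 for Ran. It was -1.999 for Rae1, -1.98 for Tpr, -1.86 for Xpo1, -1.69 for Rcc1 and -1.69 for Kpna2. It was -1.54 for Kpnb1, -1.47 for Xpo6, -1.34 for Nup153 and -1.32 for Nup98. For all 14 of the 20 the TBP effect was called below the FOXJ3 effect, as it was for 28% of all features. With TMM the difference was not called for Kpna2, Kpnb1, Rcc1, Xpo6, Nup153 and Nup98. Ipo7, Nup133, Nup54, Ipo11, Rae1 and Xpo6 were named for a small p in these same data, so their flags are no separate result.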

How the results depend on the processing

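For TBP LOF, 31 transport genes were lower and 0 higher. The lower genes numbered 19 with TMM and 20 with DESeq2 size factors, each with 6 higher, and 27 to 34 under the other 6 settings of test, filter, embryos and covariates with 0 higher. Leaving out each embryo in turn gave 28 to 33 calls (5432 to 6162 of all features). Of the 31 genes, 19 were lower in all of these. Among the 26 genes without exon overlap or near-identical copy, an alternative chosen after seeing the data, 16 were lower, the smaller count coming from the smaller list. Besides the scalings, the call was lost under the replicate block for Ipo13, Ipo9, Nup153 and Tnpo2, with the mCherry-Trim21 level as a covariate for Ipo13, Tnpo2 and Xpo6, and with no filter or with all embryos for Tnpo2. Conversely, Nup188 and Pom121 were lower with the DESeq2 test and filterByExpr, and Kpna4 with the DESeq2 test. Without some single embryo 4 uncalled genes became lower, Nup188 and Pom121 in 5 of 18 fits each, Kpna4 in 2 and Kpna1 in 1 (without TBP LOF embryo 8, adjusted p = 0.0171). Ipo13, Tnpo2 and Xpo6 lost the call in 12, 11 and 8 of the 18 fits without an embryo, and Ipo9 and Nup153 without CONTROL embryos 1 and 8 (adjusted p = 0.0774 and 0.0698). The difference between the effects was called for 20 genes with TMM against 32 with ERCC scaling; the cause was not tested.

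Signs turned with TMM in TBP LOF for Kpna1 (0.13), Ndc1 (0.31), Nup214 (0.45), Nup50 (0.20), Nup62 (0.74), Nup85 (0.38), Pom121 (0.15), Tnpo1 (0.58), Tnpo2 (0.057), Xpo4 (0.22), Xpo5 (0.50), Xpo6 (0.053) and Xpo7 (0.35), and with DESeq2 size factors for Kpna1 (0.15), Ndc1 (0.32), Nup214 (0.48), Nup50 (0.22), Nup62 (0.77), Nup85 (0.38), Pom121 (0.18), Tnpo1 (0.61), Tnpo2 (0.084), Xpo4 (0.24), Xpo5 (0.50), Xpo6 (0.081) and Xpo7 (0.37). Of these, Nup62 and Tnpo1 were called on those scales. With all embryos Nup62 was 0.028. Leaving out embryos gave -0.14 to 0.23 for Nup37, -0.24 to 0.068 for Nup62 and -0.26 to 0.19 for Nup88. For the difference of effects, signs turned with TMM for 15 of the 50 genes, among them Pom121 (0.017), which was called with ERCC scaling, and 4 of the 20 genes named by rule, Nup62cl (1.03), Nup210 (0.56), Kpna7 (0.22) and Nup62 (0.84).

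After FOXJ3 LOF, 0 of the 50 genes were called under any setting. All features gave 2 calls, 4 with DESeq2 or with no filter, 1 with filterByExpr or in batch 2 alone, and 0 in batch 1 alone or with the mCherry-Trim21 level as a covariate. Signs turned, without a call, for 10 of the 50 genes with ERCC scaling, 2 without the batch term, 8 in batch 1 and 15 in batch 2. Of the 20 genes named by rule, they turned with ERCC scaling for Ipo8 (0.12), Kpna3 (0.0089), Kpna2 (0.031), Nup62 (0.032) and Tpr (0.18), without the batch term for Ipo8 (0.0079) and Tpr (0.0088), in batch 1 for Nup62cl (-0.37), Nup153 (-0.078) and Tpr (0.074), and in batch 2 for Ran (-0.089), Ipo8 (0.36), Kpna3 (0.0021), Kpnb1 (-0.19), Xpo1 (-0.13) and Nup62 (0.25).

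Replicate numbers did not pair the embryos: deviations of same-numbered embryos correlated between -0.05 and 0.13 in 7 TBP pairs and between -0.21 and 0.27 in 12 FOXJ3 pairs, and 0 embryos correlated best with their own number. With the numbers as a replicate block, 27 transport genes and 5001 features were called for TBP and 0 features for FOXJ3. Under the block, log2 fold changes of Nup62 turned to 0.047 and Nup88 turned to -0.029, and after FOXJ3 LOF 4 of the 50 genes turned sign, of the genes named by rule Nup62cl (-0.27).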
